A study of Mus musculus with 6 samples.

Results

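The 10 genes described here, Yap1, Wwtr1, Tead1, Ankrd1, Ccn1, Ccn2, Crim1, Amotl2, Ajuba and Lats2, encode the transcriptional coactivators YAP and TAZ, a DNA-binding partner, target genes and regulators of the pathway. They were chosen by name, as were the gene lists below, with earlier results of these data known. Their counts and medians beside those of all genes therefore describe these genes and are not an independent test. Every expression feature whose transcript accession maps to one of the 10 was taken from the raw array files. That gave 14 of the 56605 expression features, 3 each for Tead1 and Lats2 and 1 for each of the other 8 genes. All 14 features were well above background on all 6 arrays, so none of the 10 genes was lost to a filter on dim signals, which left 23060 genes to be tested in all.

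The arrays held total RNA of cultured tail tissue fibroblasts of C57BL/6 mice. All 6 samples, controls included, carried the same genotype, a conditional allele of lysyl hydroxylase 2 (LH2 F/F) with a Cre transgene under the CAG promoter, which is active in most cell types, and each group had 2 arrays. In the group no.1 the cells had 24 h of tamoxifen followed by medium with tamoxifen, in no.2 they had 24 h of tamoxifen followed by medium without it, and control cells grew in medium free of tamoxifen. Deposited file names carry 24 h for replicate 1 and 48 h for replicate 2 of both no.1 and no.2, and 0 h for the controls, where the labels give 24 h for no.1 and no.2. No group had tamoxifen with the LH2 gene intact, so tamoxifen itself and loss of LH2 cannot be told apart, and the labels do not say whether the 2 samples of a group came from separate cultures.

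YAP and TAZ are coactivators that have no DNA-binding domain and act mainly through the TEAD transcription factors. In the Hippo pathway, the kinases MST1 and MST2 activate the kinases LATS1 and LATS2, which phosphorylate YAP and TAZ and keep them out of the nucleus. In fibroblasts YAP and TAZ respond to the stiffness of the matrix and to tension in the actin cytoskeleton, and Ankrd1, Ccn1 and Ccn2 are their most widely used target genes. The arrays measured RNA only, and not the phosphorylation or location of the proteins. In RNA from a whole culture, fewer cells of a type and less RNA per cell cannot be told apart.

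Promoter sequence is shown first because the TEAD motif is the element through which YAP and TAZ reach their target genes. RefSeq windows of GRCm38.p6, from 250 bases before to 50 bases after an annotated start, were at hand for 8 of the 10 genes (Ankrd1, Ccn1, Crim1, Amotl2, Ajuba, Lats2, Yap1 and Wwtr1), in 10 windows. The 6-letter TEAD motif GGAATG, searched on both strands (CATTCC on the other), lay in 9 of the 10 windows and in at least 1 window of each of the 8 genes. Of all 32851 promoter windows of the same length, 14.7% held it. The CArG box, bound by SRF, was searched on both strands as well and lay in 0 of the 10 windows and in 1.63% of all windows, so no motif overlapped another. A match of letters is a description of the window and not evidence of binding in these cells.

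The 250 bases before the start are shown in the direction of transcription for Ankrd1, the gene with the largest difference of the 10, for Crim1, a target that was also higher in no.1, and for Ccn1, a target that did not pass the test. Capitals mark the TEAD motif, which begins 210 and 123 bases before the start in Ankrd1, 103 bases before it in Ccn1 and 79 bases before it in Crim1.
Ankrd1, chr19:36119845-36120094, minus strand: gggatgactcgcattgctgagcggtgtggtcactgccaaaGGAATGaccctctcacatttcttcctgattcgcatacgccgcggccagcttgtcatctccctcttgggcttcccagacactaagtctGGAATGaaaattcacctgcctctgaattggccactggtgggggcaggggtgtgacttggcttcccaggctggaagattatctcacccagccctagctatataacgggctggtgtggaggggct
Ccn1, chr3:145649986-145650235, minus strand: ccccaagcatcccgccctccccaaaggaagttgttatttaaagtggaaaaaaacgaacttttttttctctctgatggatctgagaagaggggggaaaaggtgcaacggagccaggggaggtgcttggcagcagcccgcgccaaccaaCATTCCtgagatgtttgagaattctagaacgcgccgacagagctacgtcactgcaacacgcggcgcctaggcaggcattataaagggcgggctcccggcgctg
Crim1, chr17:78199998-78200247, plus strand: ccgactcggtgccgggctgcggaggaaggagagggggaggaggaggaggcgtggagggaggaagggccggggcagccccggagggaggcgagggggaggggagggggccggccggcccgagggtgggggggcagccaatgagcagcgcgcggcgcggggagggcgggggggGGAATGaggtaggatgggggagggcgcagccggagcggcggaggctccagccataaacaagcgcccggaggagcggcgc

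For the remaining genes with a window, 26 bases around each motif are shown in the same way, to allow the bases that flank it to be compared. The motif lies 65 bases before the start in Amotl2, 164 and 186 bases before it in Ajuba and 141 bases before it in Yap1. In Wwtr1 1 site is shared by overlapping windows of 2 starts, 136 and 170 bases before them, and in Lats2 it lies 5 bases after the start.
Amotl2, chr9:102717729-102717754, plus strand: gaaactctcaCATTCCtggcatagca
Ajuba, chr14:54577810-54577835, minus strand: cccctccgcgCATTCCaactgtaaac
Ajuba, chr14:54577832-54577857, minus strand: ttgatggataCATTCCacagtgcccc
Yap1, chr9:8004722-8004747, minus strand: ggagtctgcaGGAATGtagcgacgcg
Wwtr1, chr3:57576031-57576056, minus strand: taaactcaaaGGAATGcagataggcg
Lats2, chr14:57746104-57746129, minus strand: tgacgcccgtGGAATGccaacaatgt

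The groups differed in brightness, with 53.4% to 53.5% of features well above background in no.1, 48.4% to 48.6% in no.2 and 44.2% to 45.7% in control. An array's 75th percentile of signal ranged over 85.1 to 95.9 in no.1, 55.1 to 56.9 in no.2 and 33.7 to 34.2 in control. A level is therefore given here as a feature's processed signal divided by the 75th percentile of its array, and a log2 fold change as the difference of mean log2 levels. Scaling to the spike-in controls instead moved the median log2 fold change over all genes to 1.82 for no.1 against control and to 1.18 for no.2 against control, from -0.12 and -0.10. Changes reported below are relative to the 75th percentile, and levels of different features are not compared with each other because features differ in how they bind. All arrays lay on 1 slide, with the control arrays in another row than the rest, so the row and the contrast with control cannot be told apart. Plod2, which encodes LH2, had a signal of 31.8 and 17.1 in no.1, 13.3 and 8.59 in no.2, and 42.1 and 34.9 in control. Relative to the 75th percentile it fell by 2.13 (SE 0.34) on the log2 scale in no.1 (limma, adjusted p = 0.00613) and by 2.57 (SE 0.34) in no.2 (adjusted p = 0.00768). On the spike-in scale the no.1 call was lost, at -0.19 (SE 0.33, adjusted p = 0.593), and the no.2 value was -1.28 (SE 0.33, adjusted p = 0.0131). Under normexp background correction, which adds an offset of 50 to every signal, the log2 fold changes of Plod2 were -0.95 (adjusted p = 0.00184) and -0.83 (adjusted p = 0.00826).

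The comparison of no.1 with control asks which pathway genes differed in LH2 conditional knockout cells with tamoxifen kept in the medium. Ankrd1 was 35.9-fold higher, and Crim1, Tead1 and Yap1 were 2.94-fold, 2.12-fold and 1.57-fold higher. No gene of the 10 was called lower, and Wwtr1, Ccn1, Ccn2, Amotl2, Ajuba and Lats2 did not pass the test. These 4 of 10 genes called higher stand beside 21.4% of all genes called higher and 26.4% called lower in this comparison (limma, Benjamini-Hochberg adjusted p under 0.05 over all 23060 genes). The median log2 fold change of the 10 genes was 0.37, against -0.12 over all genes. The arrays of no.1 lay above both control arrays for 5 of the 10 genes and below both for 1, where 36.7% of all genes lay above and 44.7% below.

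In the comparison of no.2 with control, where tamoxifen had been withdrawn, only Ankrd1 of the 10 genes was called, at 20.5-fold higher. Called higher were 12.1% and called lower 16.2% of all genes. Tead1 and Yap1 had log2 fold changes of 0.64 (SE 0.21, adjusted p = 0.0638) and 0.53 (SE 0.19, adjusted p = 0.0779). Of the 19 alternative settings Tead1 was called higher in 9 and Yap1 in 8, and both stayed above zero in all 19. Several of those settings also raised the share of all genes called higher. The median of the 10 log2 fold changes was 0.11, against -0.10 over all genes. The no.2 arrays lay above both control arrays for 5 genes and below both for 3, where 33.2% of all genes lay above and 41.3% below. Both comparisons use the same 2 control arrays, so their values are not independent of each other.

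**Figure D1:**
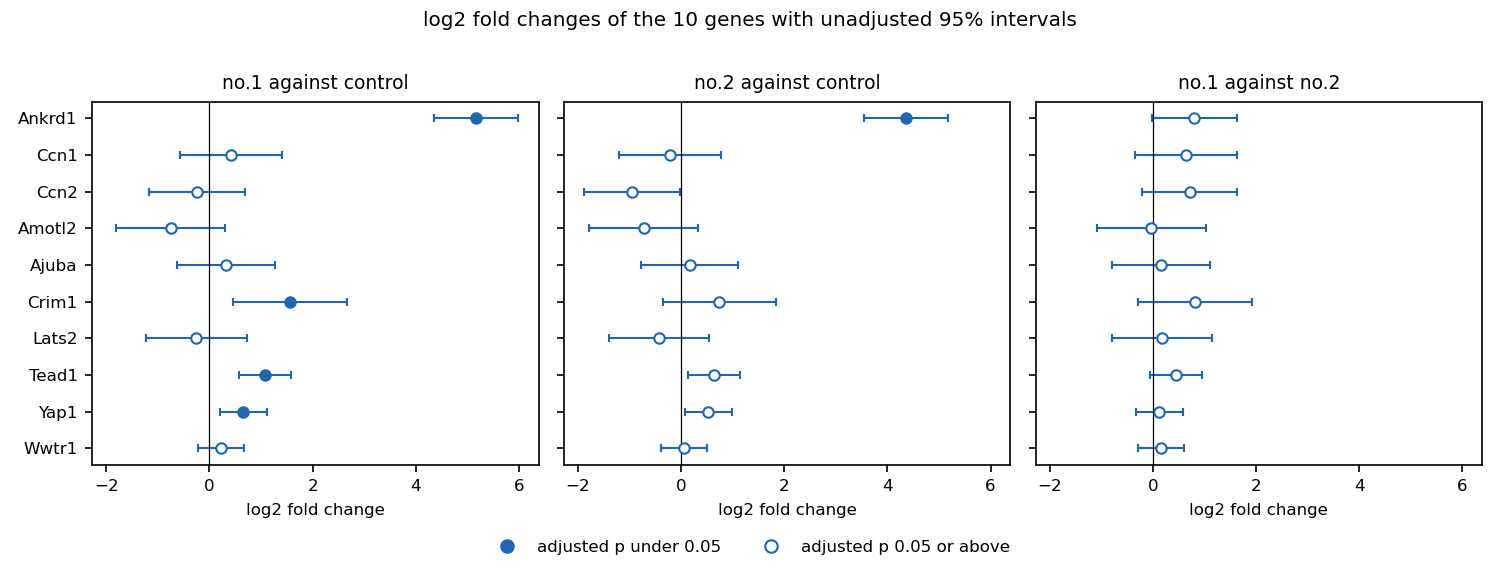
Log2 fold changes of the 10 genes (x axis) in the 3 comparisons, with 95% intervals that are not adjusted for the number of genes. Filled points passed the test at an adjusted p under 0.05: Ankrd1, Crim1, Tead1 and Yap1 in no.1 against control, Ankrd1 in no.2 against control, and none in no.1 against no.2.

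The control arrays lay close together, and the calls other than Ankrd1 rest on both of them. The median absolute log2 difference between replicates over all genes was 0.123 in control, against 0.285 in no.1 and 0.336 in no.2. With both control arrays averaged into 1 sample, or with either one left out, only Ankrd1 of the 10 genes was still called in either comparison, and the genes called over the whole array fell to 4846, 5386 or 4999 in no.1 and to 1246, 1710 or 1298 in no.2. Under those 3 settings the adjusted p of Crim1 in no.1 was 0.0955 to 0.0983, that of Tead1 0.0593 to 0.0620 and that of Yap1 0.162 to 0.168.

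Yap1 (NM_001171147), the gene of the coactivator YAP, had levels of 42.0 and 37.8 in no.1, 35.5 and 37.5 in no.2, and 25.1 and 25.5 in control. All 4 arrays of no.1 and no.2 lay above both control arrays, and the lowest no.1 array lay just above the highest no.2 array. The log2 fold change of no.1 against control was 0.66 (SE 0.19, adjusted p = 0.0308), a call lost with the replicate number as a block. Without replicate 1 of no.1 it was 0.58 with an adjusted p of 0.0963.

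Wwtr1 (NM_133784), the gene of TAZ, had levels of 32.1 and 31.4 in no.1, 29.1 and 27.7 in no.2, and 27.4 and 27.0 in control. The groups kept this order without overlap, but the steps were small. Neither contrast passed the test, with log2 fold changes of 0.22 (SE 0.18, adjusted p = 0.340) in no.1 and 0.060 (SE 0.18, adjusted p = 0.816) in no.2, and the 95% interval of the first ran from -0.22 to 0.66.

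Tead1 is 1 of the 4 TEAD factors that carry YAP and TAZ to DNA. Its brightest feature had levels of 8.69 and 7.10 in no.1, 5.38 and 6.16 in no.2, and 3.66 and 3.75 in control. The 3 groups did not overlap and ran from no.1 through no.2 to control. The log2 fold change was 1.08 (SE 0.21, adjusted p = 0.00928) in no.1. Tested as single features, the other 2 Tead1 features, of the same transcript (NM_001166584), were higher by 0.90 (adjusted p = 0.0173) and 0.75 (adjusted p = 0.0322) on the log2 scale in no.1, where 46.6% of all 29681 features tested were called in one direction or the other. In no.2, where 26.7% of features were called, they differed by 0.41 (adjusted p = 0.185) and 0.44 (adjusted p = 0.166), so all 3 features gave 1 direction in both comparisons.

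Ankrd1 (NM_013468) encodes an ankyrin repeat protein that acts as a transcriptional cofactor and is best known from heart and skeletal muscle. Its levels were 20.1 and 10.7 in no.1, 7.38 and 9.55 in no.2, and 0.393 and 0.425 in control. As processed signal, before any scaling, that was 1933 and 909.6 in no.1, 406 and 543 in no.2, and 13.4 and 14.3 in control. Every array of no.1 and no.2 lay far above both control arrays, and the lower no.1 array lay just above the higher no.2 array. The log2 fold change was 5.17 (SE 0.34, adjusted p = 0.000804) in no.1 and 4.36 (SE 0.34, adjusted p = 0.00197) in no.2. It was called under all 19 alternative settings in both, with log2 fold changes of 3.68 to 7.10 in no.1 and of 2.66 to 5.65 in no.2. Some of these settings repeat the same fit or leave the fold change as it was, so they are not 19 separate checks.

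Because Ankrd1 is also a muscle gene, markers of skeletal muscle were read on the same arrays. Of 5 such markers, Myod1, Myog and Ckm were well above background on none of the 6 arrays, and Acta1, the skeletal muscle actin, was so on all of them. The summed level of the 5 markers was 21.4 and 12.6 in no.1, 15.0 and 18.6 in no.2, and 15.5 and 16.9 in control, ranges that overlap in all 3 groups. Nearly all of that sum came from Acta1 on every array. Its signal was 2047 of a summed 2053 on replicate 1 of no.1 and 515 of 528 on control replicate 1. The sum therefore describes Acta1 and says little of the other markers. Des, the gene of the muscle intermediate filament desmin, had a signal of 2.63 and 7.44 in no.1, 6.32 and 3.04 in no.2, and 9.91 and 8.11 in control, and was well above background on only 1 array each of no.1 and no.2, so no fold is given.

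Ccn1 (NM_010516) and Ccn2 (NM_010217) encode secreted matricellular proteins, also known as CYR61 and CTGF, that bind integrins and growth factors. Ccn1 had levels of 101 and 42.6 in no.1, 44.7 and 39.7 in no.2, and 46.9 and 51.4 in control. Replicate 1 of no.1 stood above every other array, while its partner lay among the no.2 arrays and below control. The log2 fold change was 0.42 (SE 0.41, adjusted p = 0.419) in no.1 and -0.22 (SE 0.41, adjusted p = 0.697) in no.2, with 95% intervals of -0.57 to 1.41 and -1.21 to 0.77. Without replicate 2 of no.1, Ccn1 was 1.04 higher in no.1 on the log2 scale (adjusted p = 0.0266), and without replicate 1 it was -0.21 (adjusted p = 0.495).

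Ccn2 had levels of 119.5 and 53.4 in no.1, 47.9 and 49.4 in no.2, and 92.9 and 95.5 in control. The no.1 arrays lay on either side of control, and both no.2 arrays lay below the other 4. Its log2 fold change was -0.24 (SE 0.38, adjusted p = 0.623) in no.1 and -0.95 (SE 0.38, adjusted p = 0.104) in no.2. Without replicate 1 of no.1 it was -0.82 in no.1 (adjusted p = 0.0494). With only no.2 and control in the fit, the same -0.95 passed with an adjusted p of 0.0257. Scaled to the spike-in controls, the no.1 value of Ccn2 was 1.70 with an adjusted p of 0.00939 and the no.2 value 0.33 with an adjusted p of 0.515, so its direction depends on the scaling.

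Crim1 (NM_015800) encodes a transmembrane protein with cysteine-rich repeats that binds bone morphogenetic proteins. It had levels of 10.4 and 4.09 in no.1, 3.09 and 4.44 in no.2, and 2.19 and 2.24 in control. All 4 no.1 and no.2 arrays lay above control, and the lower no.1 array lay within the range of no.2. The log2 fold change was 1.56 (SE 0.45, adjusted p = 0.0327) in no.1 and 0.74 (SE 0.45, adjusted p = 0.247) in no.2. Without replicate 1 of no.1 it was 0.89 with an adjusted p of 0.0875, and with only no.1 and control in the fit it was 1.56 with an adjusted p of 0.0564.

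Amotl2, Ajuba and Lats2 act on the pathway as well as being targets of it. Amotl2 (NM_019764), a scaffold of the angiomotin family that binds YAP, had levels of 11.5 and 6.74 in no.1, 6.06 and 13.3 in no.2, and 14.6 and 15.1 in control. All 4 no.1 and no.2 arrays lay below control. Replicate 1 minus replicate 2 was 0.77 in no.1, -1.14 in no.2 and -0.044 in control on the log2 scale. In no.1 and no.2 that gap was no smaller in size than the difference of the group mean from control. The log2 fold change was -0.75 (SE 0.43, adjusted p = 0.193) in no.1 and -0.72 (SE 0.43, adjusted p = 0.241) in no.2, and on the spike-in scale it was 1.18 and 0.56. Ajuba (NM_010590), a LIM protein that restrains the LATS kinases, had levels of 6.89 and 3.42 in no.1, 3.51 and 5.40 in no.2, and 3.68 and 4.09 in control. The 3 groups overlapped, and its log2 fold changes of 0.32 (SE 0.39, adjusted p = 0.512) and 0.17 (SE 0.39, adjusted p = 0.760) did not pass.

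Lats2, a kinase that phosphorylates YAP and TAZ, was measured by features of 2 RefSeq transcripts. Every feature had a negative log2 fold change in both comparisons with control, and only the feature of NM_153382 was called. The brighter feature of NM_015771, which stands for the gene, had levels of 5.67 and 3.21 in no.1, 2.73 and 5.22 in no.2, and 5.07 and 5.11 in control. The control arrays lay within the range of both other groups, with log2 fold changes of -0.25 (SE 0.40, adjusted p = 0.618) in no.1 and -0.43 (SE 0.40, adjusted p = 0.434) in no.2. The dimmer feature of NM_015771 had log2 fold changes of -0.089 (adjusted p = 0.805) and -0.15 (adjusted p = 0.698).

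The feature of the other transcript, NM_153382, had levels of 0.865 and 0.488 in no.1, 0.591 and 0.581 in no.2, and 1.80 and 1.67 in control. All 4 no.1 and no.2 arrays lay below both control arrays. Fitted as a single feature, it fell by 1.42 (SE 0.30, adjusted p = 0.0125) on the log2 scale in no.1 and by 1.56 (SE 0.30, adjusted p = 0.0173) in no.2. With the control arrays averaged the adjusted p was 0.0551 and 0.0759, and without control replicate 1 it was 0.0578 and 0.0744. On the spike-in scale the log2 fold change in no.1 was 0.52, with an adjusted p of 0.219, and that in no.2 was -0.28, with an adjusted p of 0.513. Whether the 2 transcripts changed unequally was not tested.

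**Figure D2:**
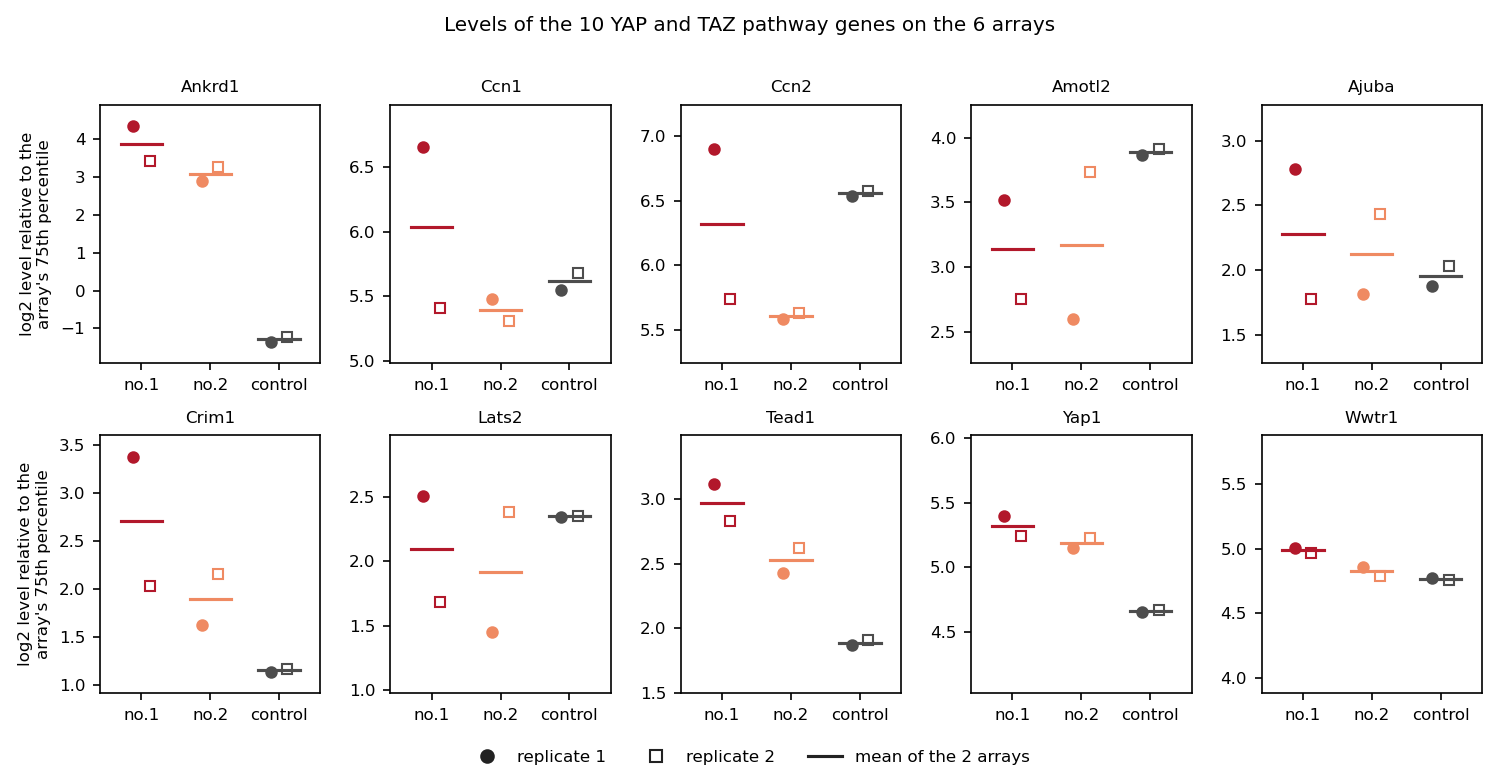
Log2 level of each of the 10 genes relative to the 75th percentile of its array (y axis, a range of its own per gene), for both arrays of no.1, no.2 and control, with a bar at the mean of the 2. Control arrays lie close together in every panel, Ankrd1 is high on all 4 no.1 and no.2 arrays, and replicate 1 of no.1 is the highest no.1 array for all 10 genes.

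**Figure D3:**
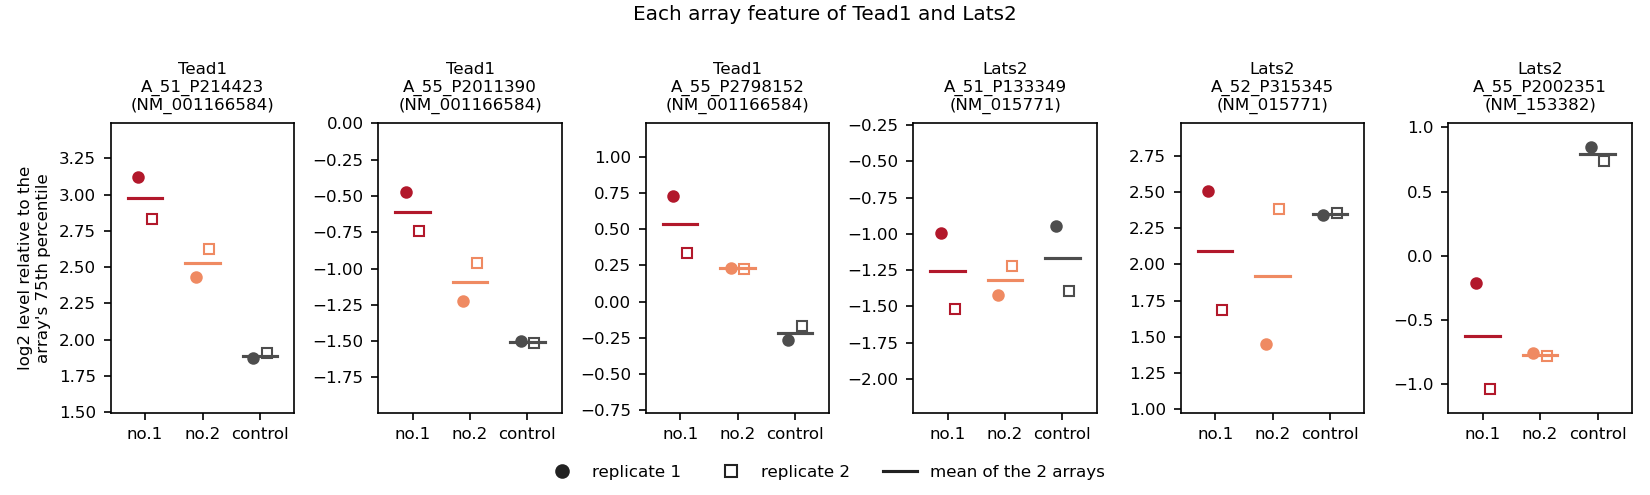
Log2 level relative to the array's 75th percentile (y axis) for each of the 3 features of Tead1 and of Lats2, by group, with a bar at the mean of the 2 arrays. The 3 Tead1 features run from no.1 through no.2 to control, while the Lats2 feature of NM_153382 lies below control in no.1 and no.2 and the 2 features of NM_015771 overlap with control.

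The comparison that the series' design text states sets no.1 beside no.2, cells with tamoxifen kept in the medium against cells from which it was withdrawn. None of the 10 genes was called, and none of the 23060 genes was (0% higher and 0% lower, with 3825 genes at an unadjusted p under 0.05 and a smallest adjusted p of 0.206, limma). Single features gave 0% as well. For 9 of the 10 genes the mean level was higher in no.1. The median log2 fold change of the 10 was 0.31, against -0.011 over all genes. The arrays of no.1 lay above both no.2 arrays for 5 genes and below both for 0, where 22.5% of all genes lay above and 25.4% below.

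Ankrd1 differed by 0.81 (SE 0.34, adjusted p = 0.305) between no.1 and no.2 on the log2 scale, with a 95% interval of -0.015 to 1.63. Crim1 had 0.82 (-0.28 to 1.92), Ccn2 0.72 (-0.21 to 1.64), Ccn1 0.64 (-0.35 to 1.63) and Tead1 0.45 (-0.054 to 0.95). The intervals of these 5 genes leave room for differences of more than 2-fold, except in Tead1, and for none. Yap1 and Wwtr1 were held more tightly, at 0.13 (-0.33 to 0.58) and 0.16 (-0.28 to 0.60). Amotl2, Ajuba and Lats2 had -0.031 (-1.09 to 1.03), 0.16 (-0.79 to 1.10) and 0.18 (-0.80 to 1.15).

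Much of the spread in no.1 ran the same way in all 10 genes. Replicate 1 of no.1 lay above replicate 2 for 10 of 10 genes, by a median of 0.87 on the log2 scale, where 52.0% of all genes lay above with a median of 0.020. The differences were 1.34 for Crim1, 1.25 for Ccn1, 1.16 for Ccn2, 1.01 for Ajuba, 0.91 for Ankrd1, 0.82 for Lats2 and 0.77 for Amotl2. Tead1 differed by 0.29, Yap1 by 0.15 and Wwtr1 by 0.034, so the coactivators and their DNA-binding partner differed least. In no.2 replicate 1 lay above replicate 2 for 2 of the 10 genes, against 57.3% of all genes, with differences of -1.14 for Amotl2, -0.93 for Lats2, -0.62 for Ajuba, -0.53 for Crim1 and -0.37 for Ankrd1. In control no gene differed by more than 0.16.

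Genes of the same pathway that are not among the 10 shared that direction in no.1 to different degrees. Replicate 1 lay above replicate 2 for 15 of 19 other YAP and TAZ target genes (median 0.48), for 18 of 23 Hippo regulators (median 0.23), for 5 of 5 TEAD partners and competitors (median 0.50) and for 11 of 12 SRF and MRTF genes (median 0.40), but for 0 of 3 other CCN genes (median -1.34). In no.2 the counts were 9 of 19 (median -0.20), 10 of 23 (-0.062), 2 of 5 (-0.21), 6 of 12 (0.012) and 1 of 3 (-0.026), in the same order. The no.2 lists thus did not share the direction seen in no.1. Replicates 1 and 2 of both no.1 and no.2 are the arrays whose deposited names carry 24 h and 48 h. With 1 array of a group at each, hours and array cannot be told apart.

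**Figure D4:**
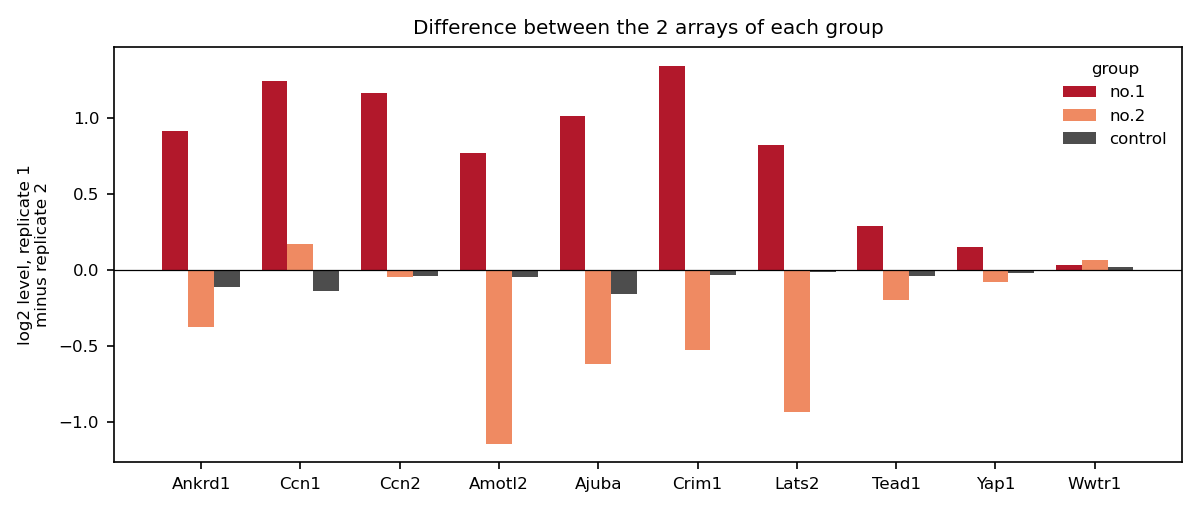
Difference between the 2 arrays of each group, replicate 1 minus replicate 2, as log2 level (y axis) for the 10 genes. All 10 bars of no.1 lie above 0, 8 of the 10 bars of no.2 lie below 0, and the control bars lie close to 0.

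Of the 23 Hippo kinases and upstream regulators, all tested, 10 were called higher and 1 lower in no.1 (median log2 fold change 0.58), and 4 higher and 0 lower in no.2 (median 0.36). Over all genes, for this list and those below, 21.4% were called higher and 26.4% lower in no.1 (median -0.12), and 12.1% higher and 16.2% lower in no.2 (median -0.10). These shares of all genes were themselves lower with the control arrays averaged, with either left out, or without replicate 1 of no.1. Against control, no.1 had higher Fat4, an atypical cadherin upstream of the pathway (1.30, SE 0.39, adjusted p = 0.0362), Mob1a, an activator of the LATS kinases (1.27, SE 0.18, adjusted p = 0.00462), Stk4, which encodes MST1 (1.06, SE 0.22, adjusted p = 0.0123), and Wwc1, which encodes the scaffold KIBRA (1.03, SE 0.34, adjusted p = 0.0462). In no.2 Dchs1, the ligand of Fat4, was 2.05 higher (SE 0.37, adjusted p = 0.0152), Fat4 was 1.71 higher (adjusted p = 0.0260), Mob1a 1.00 (adjusted p = 0.0151) and Stk4 0.78 (adjusted p = 0.0467). Normexp background correction ended several of these calls. Under it Fat4 stood at 0.088 (adjusted p = 0.683) and Wwc1 at 0.054 (adjusted p = 0.755) in no.1, Fat4 at 0.43 (adjusted p = 0.113) in no.2, and Mob1a turned to -0.18 in no.1 and to -0.065 in no.2, where neither passed. With the mean over a gene's features in place of the brightest, Dchs1 in no.2 was 0.66 (adjusted p = 0.122) and Stk4 0.56 (adjusted p = 0.0838), and neither passed. Stk4 in no.2 also did not pass with the replicate number as a block (adjusted p = 0.0696). With the control arrays averaged, or with either left out, nearly all of this list's calls higher were lost. Without replicate 1 of no.1 most of those in no.1 were lost. Fewer of all genes were called higher at these settings as well.

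Of the 7 TEAD partners and competitors, 5 were tested, and Vgll1 and Vgll2 were too dim. In no.1 Tead4 was 1.77 higher (SE 0.35, adjusted p = 0.0105) and Tead2 0.88 higher (SE 0.22, adjusted p = 0.0197), while Tead3 fell by 0.99 (SE 0.19, adjusted p = 0.00979) and stood at 0.94 on the spike-in scale. Under normexp background correction Tead4 was 0.45 in no.1 (adjusted p = 0.0922). In no.2 Tead2 was 1.09 higher (SE 0.22, adjusted p = 0.0189) and was the 1 gene called. With the control arrays averaged fewer of the 5 were called in no.1 and the no.2 call was lost, where fewer of all genes were called as well.

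The other YAP and TAZ target genes did not share 1 direction. Of 20 such genes 19 were tested, Nt5e being too dim, and 6 were called higher and 5 lower in no.1 (median log2 fold change -0.12), and 4 higher and 5 lower in no.2 (median -0.30), beside 21.4% and 26.4% of all genes in no.1 and 12.1% and 16.2% in no.2. To 2 decimals the list's median in no.1 was that over all genes. In no.1 the growth factor gene Tgfb2 was 2.83 higher (SE 0.29, adjusted p = 0.00237) and Dock5, an exchange factor for Rac, 2.32 higher (SE 0.33, adjusted p = 0.00459), while Igfbp3, an insulin-like growth factor binding protein, fell by 3.47 (SE 0.76, adjusted p = 0.0139), a call lost on the spike-in scale at -1.53 (adjusted p = 0.119). Edn1, the gene of endothelin-1, was not well above background in control and was at least 3.36-fold higher in no.1 (adjusted p = 0.0426, and 0.0963 with the control arrays averaged). That limit rests on replicate 1 of no.1, since it was 8.85-fold from replicate 1 alone and 1.28-fold from replicate 2 alone, and without replicate 1 the adjusted p was 0.170. In no.2 Tgfb2 was 2.30 higher (adjusted p = 0.00652), Dock5 1.38 (adjusted p = 0.0295) and Birc5, the gene of survivin, 1.31 (adjusted p = 0.0317), and Dock5 was 0.62 with normexp (adjusted p = 0.104). These named genes were all higher, and the 5 genes of the list called lower in no.2 are not named here. The median in no.1 was 0.31 under scaling to the median feature and 1.82 on the spike-in scale, so the sign of the list's median depends on the scaling. With the control arrays averaged fewer genes of the list were called in each direction in no.1 and in no.2, and fewer of all genes as well.

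Of the other 4 CCN genes, relatives of Ccn1 and Ccn2, 3 were tested. Ccn5, which lacks the C-terminal domain of the family, fell by 5.41 (SE 0.79, adjusted p = 0.00490) in no.1 and by 3.38 (SE 0.79, adjusted p = 0.0283) in no.2, and Ccn4, a target of Wnt signalling, was 2.27 (SE 0.29, adjusted p = 0.00372) and 2.46 (SE 0.29, adjusted p = 0.00573) higher. Both directions held under every scaling tried. Averaging the control arrays gave Ccn5 an adjusted p of 0.0905 in no.2 and so ended that call.

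SRF and its coactivators MRTF-A and MRTF-B also respond to actin and share some target genes with YAP and TAZ. Of 12 SRF and MRTF genes 4 were called higher and 0 lower in no.1 (median 0.36), and 1 higher and 0 lower in no.2 (median 0.24), where 21.4% of all genes were called higher in no.1 and 12.1% in no.2, a share that the 1 of 12 in no.2 did not exceed. Filip1l was 2.63 higher in no.1 (SE 0.22, adjusted p = 0.00149) and 1.47 higher in no.2 (SE 0.22, adjusted p = 0.00930). The remaining 3 called in no.1 were Fhl2, a LIM protein (0.88, adjusted p = 0.0181), Vcl, the gene of the focal adhesion protein vinculin (0.88, adjusted p = 0.0250), and Mrtfb (0.62, adjusted p = 0.0376), which was 0.23 over the mean of its features (adjusted p = 0.517). The Mrtfb call was also lost with the replicate number as a block. With the control arrays averaged most of the 4 calls in no.1 and the 1 in no.2 were lost. Without replicate 1 of no.1 most of the calls in no.1 were lost. Fewer of all genes were called at these settings as well.

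Between no.1 and no.2 no gene of these lists was called. The lowest p among them belonged to Filip1l, at 1.15 (SE 0.22, adjusted p = 0.282), and Dchs1, at -1.68 (SE 0.37, adjusted p = 0.282). Of the other YAP and TAZ target genes 15 lay above zero and 4 below, with a median of 0.32.

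**Figure D5:**
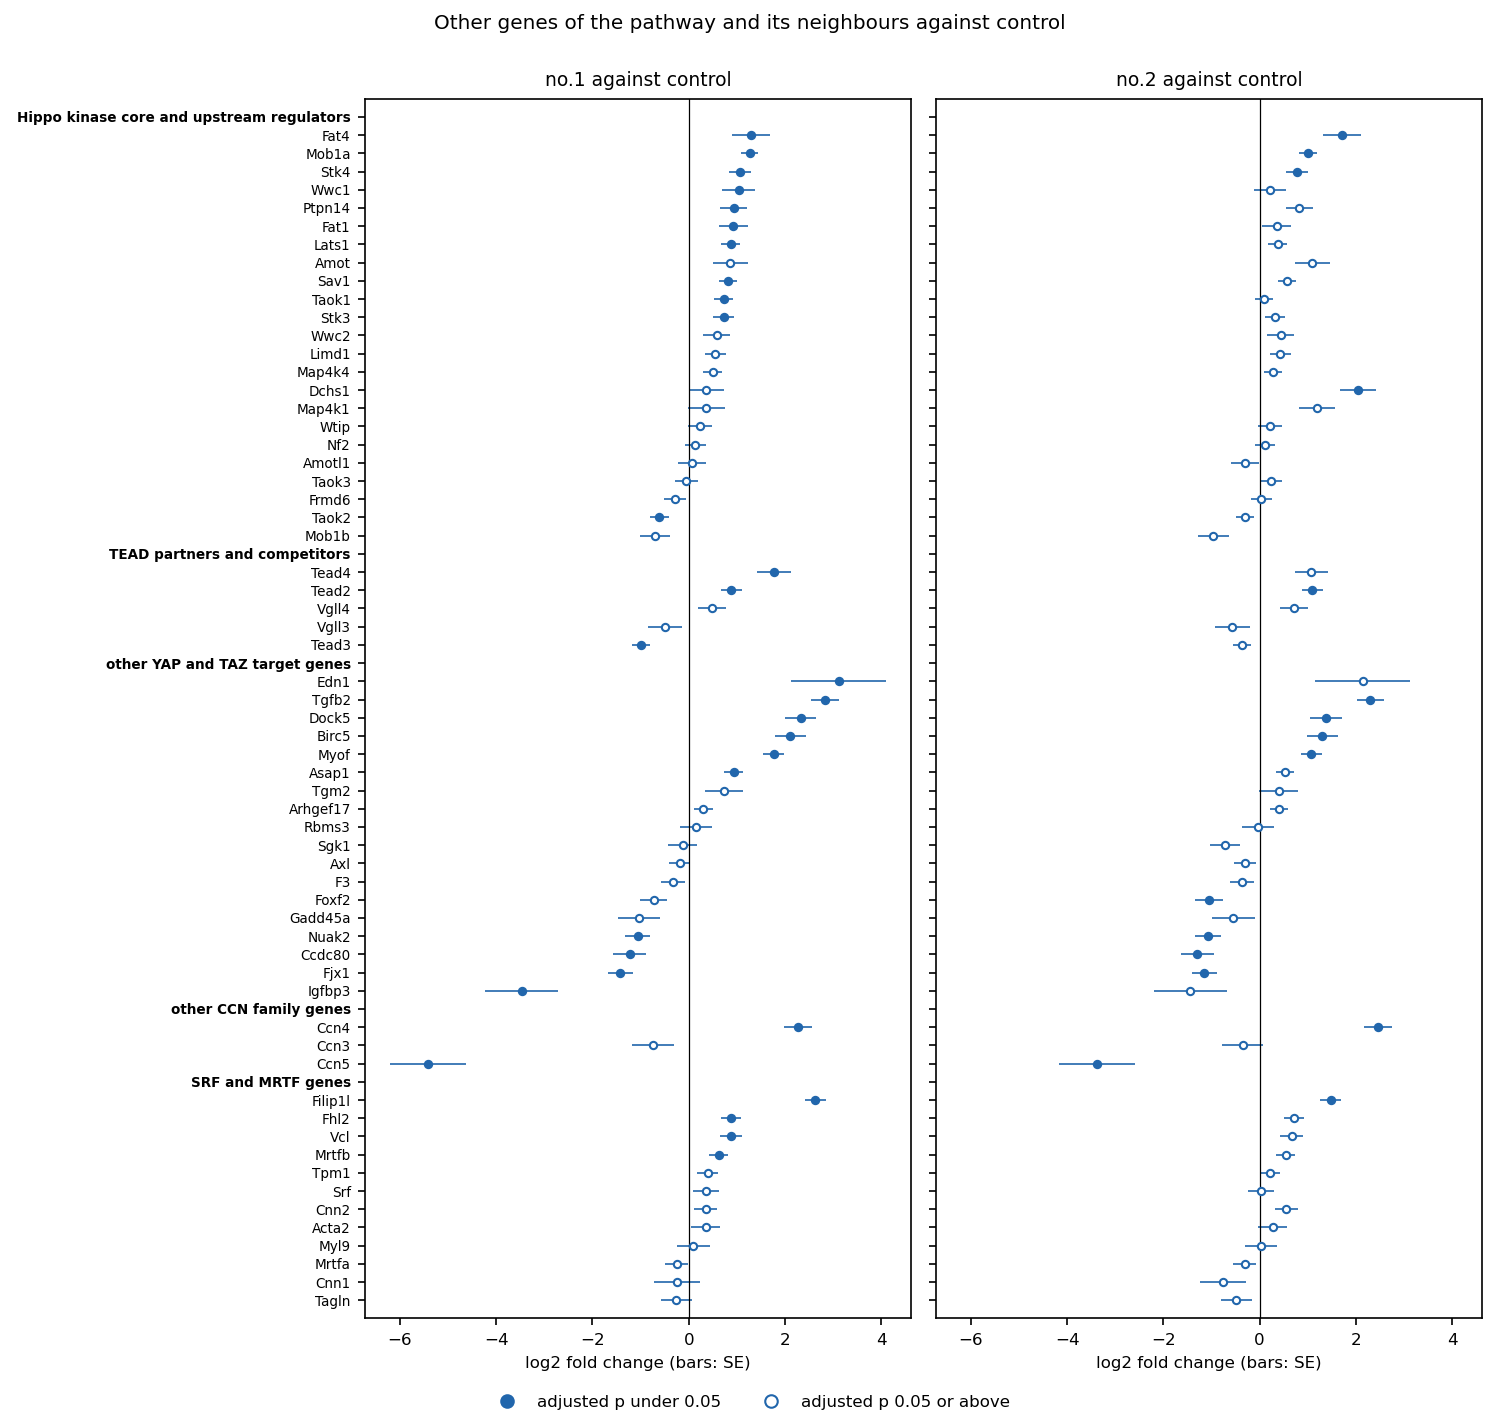
Log2 fold changes with standard errors (x axis) of the tested genes of 5 lists, 1 target gene not drawn, no.1 against control on the left and no.2 against control on the right. Filled points passed the test at an adjusted p under 0.05, most of the Hippo regulators lie to the right of 0, and the other YAP and TAZ targets lie on both sides. The point of Edn1 is the fitted value of a gene not well above background in control.

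By the size of the difference over the 4 no.1 and no.2 arrays, after each gene's control mean was subtracted, the genes nearest to Ankrd1 among 12058 named genes bright on all arrays were Idi1 (root mean square difference 0.466 on the log2 scale), Klra16 (0.618), Lmo7 (1.07), Msln (1.09) and Klra4 (1.14). Nearest to Ccn2 were Dusp1 (0.186), Thbs1 (0.197), Sh3bgr (0.208), 9130008F23Rik (0.212) and Oprl1 (0.213). Dusp1 stood at 0.029 and -0.94 in no.1 and at -0.92 and -0.78 in no.2 relative to control. It was at the control level on replicate 1 of no.1 and below it on the other 3 arrays, a pattern that its choice as a neighbour of Ccn2 fixes.

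The label of fibroblasts was read against markers. Of 9 fibroblast markers 8 were well above background on all 6 arrays and Lum on none, and their summed level was 877 to 917 in no.1, 1125 to 1225 in no.2 and 1374 to 1432 in control. That order depends on the scaling. Before scaling, their summed signal was 84114 and 77992 in no.1, 61963 and 69658 in no.2, and 46944 and 48251 in control. Of these markers 4 were called lower in no.1, among them Dcn, the gene of decorin, which fell by 3.73 (SE 0.44, adjusted p = 0.00320), and 3 were called lower in no.2, beside 26.4% and 16.2% of all genes called lower. Col1a1, Col1a2, Col3a1 and Vim were called in neither comparison. Of the leukocyte markers 3 of 5 were bright, Ptprc and Adgre1 on no array, with a summed level of 2.89 to 3.23 in no.1, 2.52 to 5.33 in no.2 and 11.9 to 12.6 in control. Of 4 pericyte and smooth muscle markers 3 were bright, Rgs5 on no array, with a summed level of 5.64 to 7.54 in no.1, 7.85 to 10.1 in no.2 and 11.7 to 11.8 in control. Their summed signal before scaling was 541 and 641 in no.1, 556 and 446 in no.2, and 403 and 395 in control. Of 6 keratinocyte markers only Krt10 was bright, and of 4 endothelial markers none was bright on all arrays. The part of these shifts in the levels of the 10 genes was not tested.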

How the data were processed

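Cy3-labelled cRNA of total RNA was read on Agilent 1-colour arrays, per the labels. Scanner files hold intensity values from Feature Extraction 12.1.1.1, per the file headers, background-subtracted and detrended but not scaled between arrays, where 9.5.1.1 stands in the submitters' processing notes. The headers name build mm9, so RefSeq GRCm38.p6 served only for symbols (32994 of 56605 features matched, 58.3%) and promoter sequences. How the deposited table of values was made is not stated. It held intensity values within 1% of the quantile-normalized signal for at least 99.97% of features, with a median of 5.16 in every column, and 0 of its columns lacked a sample.

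Processed signals were divided by the array's 75th percentile and taken to log2, with 1 spot for each of the 14 features of the 10 genes, and no spot saturated. A gene was represented by its feature of highest mean and tested where at least 1 group had that feature well above background on both its arrays (23060 genes, 14081 with a symbol). Tests used limma 3.58.1 in R 4.3.3 (data.table version 1.17.8), with group means fitted to the 6 arrays together, 3 residual degrees of freedom and Benjamini-Hochberg adjustment. Every adjusted p is limma's, and every interval covers 95% unadjusted. A bound sets the bright group's mean against the dimmest signal well above background. With 2 arrays a group a p-value measures only how these samples vary, possibly for technical reasons, and the number of arrays limits their precision. The labels list the control arrays as 2 samples, and both were entered as such. The fit was tested on simulated data. Normexp used the median foreground signal, since the files hold no mean.

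The members and lists were chosen with earlier results of these data known. Besides the 10 genes and Plod2, the text names up to 4 called genes of each list and comparison, or the 2 of lowest p, and the 5 nearest genes to Ankrd1 and Ccn2. Mob1b was added beside Mob1a after its values were seen. Of the other YAP and TAZ targets, 1 gene enters the counts and medians but is not reported here by name. The NM_153382 feature was singled out after its values were seen. Background correction, scaling, filter, choice of feature, prior, replicate block and arrays used were varied.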

Additional observations from a re-analysis of the deposited data

How the results depend on the processing

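Over 19 alternative settings, 536 of 624 log2 fold changes of the 10 genes and of the Lats2 feature of NM_153382 (the latter added after its values were seen) kept direction and side of the threshold, 23 lost and 30 gained a call, and 35 turned direction. The cause was not tested. The settings are not all distinct. An intensity trend, the replicate block, averaged control arrays and the fit of only the 2 groups compared left fold changes as they were, so no direction could turn there. In each comparison, leaving out an array of the third group repeated the fit of only the 2 groups compared. The value table nearly repeated quantile normalization. Ankrd1 kept its call against control in all 19. In no.1 against control the genes called numbered 19395 on the spike-in scale, 24873 without a filter on dim features, 4846 with the control arrays averaged and 4999 to 12054 with 1 array left out, and in no.2 against control 15565, 16476, 1246 and 1298 to 6367. In no.1 against no.2 they numbered 8296 without the filter and 0 to 117 with 1 array left out. Of the 10 genes, in no.1 against control 9 were called higher on the spike-in scale, 1 with the control arrays averaged and 1 to 5 with 1 array left out, when 0 to 1 was called lower. In no.2 against control 6 were called higher on the spike-in scale, 4 with normexp background correction, 3 each with quantile normalization, the median feature, the 75th percentile over features bright on all arrays, no filter, the value table or an intensity trend, and 2 with features bright on all arrays only. In no.2, 1 was called lower with only the 2 groups compared and 0 to 1 with 1 array left out. The share of calls that were higher was 44.8% in no.1 and 42.8% in no.2, and moved to 69.7% and 69.0% with the median feature, 54.4% and 54.7% with quantile normalization and 97.8% and 96.6% on the spike-in scale. Of all genes, 82.3% were called higher in no.1 and 65.2% in no.2 on the spike-in scale. In no.2 that share was 13.2% with normexp, 16.1% with quantile normalization or the value table, and 21.0% with the median feature. It was 14.2% with the 75th percentile over features bright on all arrays and 6.64% with no filter. It was 14.1% with an intensity trend and 13.4% with features bright on all arrays only.

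On the spike-in scale the log2 fold changes that turned were, in no.1 against control, Amotl2 at 1.18, Ccn2 at 1.70, Lats2 at 1.68 and the NM_153382 feature at 0.52, in no.2 against control, Amotl2 at 0.56, Ccn1 at 1.07, Ccn2 at 0.33 and Lats2 at 0.86, and, in no.1 against no.2, Amotl2 at 0.62. With normexp, Ccn2 stood at 0.45 and Lats2 at 0.25 in no.1, Ccn1 at 0.13 in no.2, and Amotl2 at 0.20 and the NM_153382 feature at -0.028 in no.1 against no.2. With the median feature, Ccn2 stood at 0.19 and Lats2 at 0.18 in no.1, Ccn1 at 0.097 in no.2 and Amotl2 at 0.083 in no.1 against no.2. With quantile normalization, and with the value table, Ccn2 stood at 0.18 in no.1 and Ccn1 at 0.13 in no.2. With 1 array left out, values in no.1 against control ran from -0.18 to 0.83 for Ajuba, -0.21 to 1.04 for Ccn1, -0.82 to 0.34 for Ccn2 and -0.66 to 0.16 for Lats2. In no.2 against control they ran from -0.14 to 0.48 for Ajuba and -0.90 to 0.037 for Lats2. In no.1 against no.2 they ran from -0.35 to 0.66 for Ajuba, -0.60 to 0.54 for Amotl2, -0.29 to 0.64 for Lats2 and -0.26 to 0.56 for the NM_153382 feature. Deviations of same-numbered arrays correlated at 0.165 between no.1 and no.2, -0.035 between no.1 and control and -0.017 between no.2 and control. Deposited names of no.1 and no.2 share 24 h for replicate 1 and 48 h for replicate 2. A low correlation does not exclude pairing, but the labels name none, so the numbers were not taken to pair the samples. With a replicate block 10572, 6056 and 0 genes were called in no.1 against control, no.2 against control and no.1 against no.2, and Yap1 and Mrtfb in no.1 and Stk4 in no.2 had adjusted p of 0.0573, 0.0662 and 0.0696. Of 17 calls of other genes named in no.1 and 11 in no.2, 12 and 8 held with normexp, 8 and 2 with the control arrays averaged, and 8 in no.1 without its replicate 1. The values of Plod2 under other settings were computed after seeing the data.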
